A study of Mus musculus with 4 samples.

Results

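Reporter mice mark cells by placing a fluorescent protein under the promoter of a cell type gene, here EGFP with Csf1r in the MAFIA line and YFP with Itgax in the Cd11cYFP line. The 2 reporter entries and their 2 parent genes were chosen by symbol from the gene list, which makes 4 of 55418 gene entries, and their RNA was followed in every cell of the series. The question was how closely the RNA of each reporter followed the RNA of the gene whose promoter drives it, over cell types and from cell to cell.

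The data are droplet single-cell RNA counts of sorted thymic cells from untreated C57BL/6 mice, in 4 libraries. MAFIA replicates 1 and 2 came from mice aged 5 weeks with the genotype Csf1r-EGFP-NGFR/FKBP1A/TNFRSF6, sorted as live GFP+ cells. Cd11cYFP replicates 1 and 2 came from mice aged 9 weeks with the genotype Itgax-Venus, Venus being a bright variant of YFP, sorted as live YFP+ cells. The series title gives both lines as homozygous (Csf1rgfp/gfp and Cd11cyfp/yfp). Per the study's methods the Cd11cYFP mice were 2 males and the MAFIA mouse was a female, and only 1 MAFIA library is described there, so it is not known whether the 2 MAFIA libraries are separate animals. Line, sex and age cannot be told apart. Neither transgene is restricted to macrophages, and whether each follows its parent gene in every class is the question asked here. Since cells were sorted for the reporter protein, the levels, shares and ratios below describe sorted cells and not all thymic cells of a type.

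Itgax encodes CD11c, the alpha chain of an integrin that pairs with the beta2 chain encoded by Itgb2. It is used as a mark of dendritic cells, although many tissue macrophages, monocytes and activated lymphocytes also carry it. Csf1r encodes the receptor for the growth factors CSF1 and IL-34, on which most tissue macrophages depend for survival, and is a defining gene of macrophages and monocytes. In the thymus, macrophages engulf dying thymocytes, and dendritic cells present antigen to developing T cells.

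Counts are of unique molecular identifiers (UMIs, each standing for a captured RNA molecule). The total per library was 26876378 UMIs in MAFIA replicate 1 and between 126700210 and 185882793 in the others, with medians of 3980.5 UMIs per barcode in the first and 15759 to 17493 in the rest. After filters, 29042 cells fell into 33 clusters, made without the members and the named gene lists, with other genes near Itgax, such as Cox6a2, kept in. Of these, 25 clusters were named from fixed markers as 11 classes, and each class name stands for cells like that type. MAFIA replicate 1 stood apart: 5381 of its 5493 cells fell into no named class, mostly in a cluster led by S100a8, S100a9, Lyz2, Apoe and C1q genes with a median of 3990.5 UMIs, so class levels are given for the other 3 libraries. Fibroblasts and epithelial cells were few, with 21 to 67 cells in a Cd11cYFP library. Libraries shared 10 to 25 barcodes in pairs.

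YFP was found almost only in its own line, and EGFP mostly in its own. YFP summed to 139907 and 76011 UMIs in the kept cells of Cd11cYFP replicates 1 and 2, and to 6 and 14 UMIs in MAFIA replicates 1 and 2. EGFP summed to 46 and 135 UMIs in the MAFIA replicates, and to 19 and 8 UMIs in the Cd11cYFP replicates. YFP UMIs were therefore abundant, whereas EGFP UMIs were close to the limit of detection in cells that had been sorted for the green protein. Capture from 3' ends differs between RNAs, so few UMIs of an entry need not mean little RNA of its transgene. Levels of YFP and EGFP are therefore not compared with each other. All barcodes together held 3252, 14047, 17643 and 21002 Itgax UMIs, and 4856, 22806, 18165 and 18124 Csf1r UMIs (MAFIA replicates 1 and 2, Cd11cYFP replicates 1 and 2).

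Itgax (ENSMUSG00000030789) lies on the forward strand of chromosome 7 at chr7:127728668-127749829 (GRCm39), a span of 21162 bases between 2 other integrin alpha genes, Itgam (CD11b) and Itgad (CD11d). The counts are from the 3' end of each RNA over whole genes. The stretch that starts Itgax is shown because its activity is the common element of Itgax and the YFP transgene. It covers 250 bases before and 50 bases after the RefSeq start, chr7:128129300-128129599 of GRCm38.p6, on the forward strand:

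Itgax promoter: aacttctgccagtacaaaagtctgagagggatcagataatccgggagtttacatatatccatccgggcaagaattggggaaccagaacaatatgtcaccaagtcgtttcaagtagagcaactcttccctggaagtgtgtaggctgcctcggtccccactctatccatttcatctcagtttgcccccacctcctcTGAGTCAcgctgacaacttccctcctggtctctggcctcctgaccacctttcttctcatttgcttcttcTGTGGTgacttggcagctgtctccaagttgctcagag

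The capitals mark a TGAGTCA, the letters bound by AP-1 factors, from base 195 of the window, and a TGTGGT, the letters bound by RUNX factors, from base 264. On either strand TGAGTCA was in 5.20% and TGTGGT in 16.8% of the 32851 RefSeq promoter windows of the same length. The letters GAGGAA and GAGGAAGT, of the kind bound by PU.1 (Spi1), were not in this window and were in 28.3% and 3.20% of all windows. The shorter GGAA within both is in this window, and its share over all windows was not counted. These are matches of letters and not measured sites. Csf1r had no window in the table used.

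Itgax RNA was highest in monocytes, Cd209a+ dendritic cells and Cx3cr1+ macrophages, and not in the dendritic cell classes as a whole. Levels are in CPM, the UMIs of a gene among all UMIs of a class in a library, scaled to a common total. Monocytes held 279, 319 and 201 CPM in Cd11cYFP replicate 1, Cd11cYFP replicate 2 and MAFIA replicate 2. Cd209a+ dendritic cells, the Sirpa+ conventional type, held 243, 234 and 218 CPM. Cx3cr1+ macrophages held 197, 221 and 196 CPM. The ranges of neighbours among these 3 classes overlapped, with means of 266 ± 59.9, 232 ± 12.6 and 205 ± 14.3 CPM (SD, n = 3 libraries).

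The next levels were in plasmacytoid dendritic cells (pDC), the interferon-producing type, with 162, 150.4 and 106 CPM, and in Xcr1+ dendritic cells, the cross-presenting type, with 135, 116 and 125 CPM. These classes overlapped each other and lay below the first group in every library. Most Xcr1+ cells of MAFIA replicate 2 (621 of 889) were in a cluster led by Xcr1 and Naaa, and most of those of Cd11cYFP replicate 2 in clusters whose leading genes include Fos (1064 and 871 of 2758).

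Timd4+ macrophages held 98.8, 77.1 and 67.9 CPM, and Ccr7+ dendritic cells, the mature migratory type, held 40.7, 46.1 and 52.1 CPM. Both lay below every library's value in Xcr1+ dendritic cells, and did not overlap each other. The lowest classes were thymocytes at 34.6 ± 10.3, B cells at 18.3 ± 5.72 and epithelial cells at 11.2 ± 5.29 CPM (SD, n = 3), and fibroblasts at 11.8 and 9.34 CPM in the Cd11cYFP libraries. Thymocytes overlapped Ccr7+ dendritic cells, and epithelial cells overlapped B cells and fibroblasts.

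**Figure D1:**
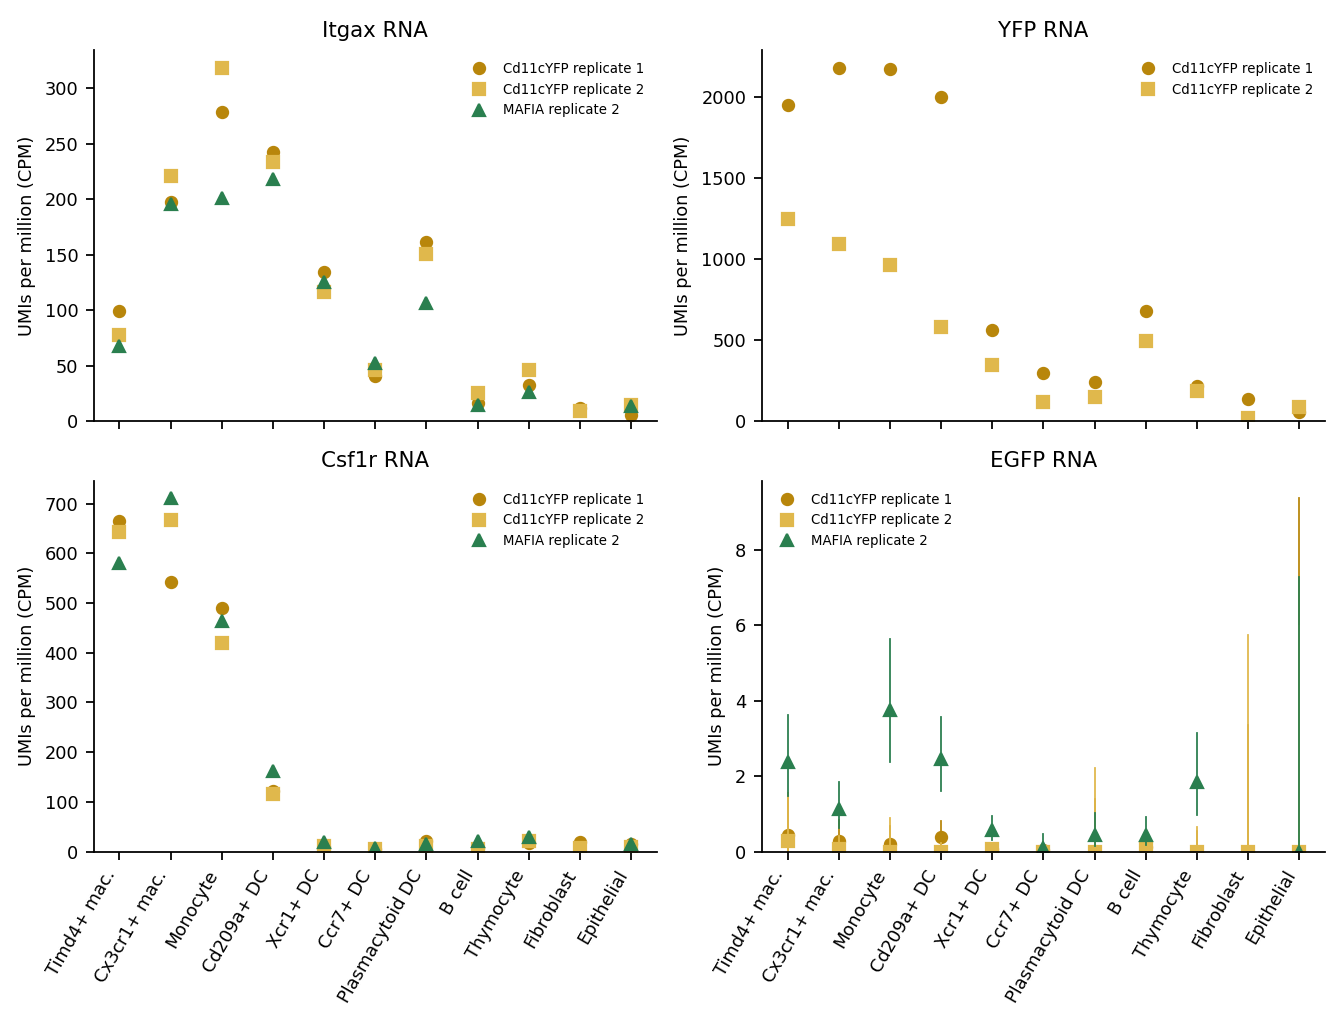
Levels of the 4 members in CPM on linear axes, by class, with 1 point per library and, for EGFP, lines for the exact 95% counting interval. Itgax reached 319 CPM in monocytes and was lower in Timd4+ than in Cx3cr1+ macrophages, YFP was high in both macrophage classes, Csf1r was above 400 CPM in macrophages and monocytes only, and EGFP points stayed at or under 3.76 CPM.

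Sums per library and class were compared in edgeR over 18322 genes with the library as a block, with classes of at least 10 cells from all 4 libraries. Itgax was 2.94-fold lower in Timd4+ than in Cx3cr1+ macrophages (log2 difference -1.56 ± 0.18 SE, edgeR adjusted p = 4.90e-08, where 25.3% of genes passed). It was 2.49-fold lower in Ccr7+ than in Xcr1+ dendritic cells (-1.32 ± 0.18, edgeR adjusted p = 1.47e-07, 52.8% of genes). It was 7.16-fold lower in B cells than in the mean of the 3 conventional dendritic cell (cDC) classes (-2.84 ± 0.17, edgeR adjusted p = 4.13e-15, 53.2% of genes). With likely doublets, droplets that may hold more than 1 cell, left out, that difference was -3.77 ± 0.22.

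The study found CD11c protein on thymic macrophages by flow cytometry, and holds that other markers are needed to keep macrophages out of cDC. Between macrophages and cDC, Itgax RNA showed no call, and the sign of its difference depended on how totals were scaled. The log2 difference was -0.12 ± 0.11 with a 95% interval of -0.34 to 0.10 (edgeR adjusted p = 0.383, 57.1% of genes passed). For pDC against cDC it was -0.03 ± 0.14 with an interval of -0.31 to 0.25 (edgeR adjusted p = 0.925, 44.7% of genes). These fits scale sums by TMM factors, which set the typical gene near 0, and without them the median of all genes moved up by 0.32 and 0.37 in the 2 comparisons. Itgax was then 0.21 ± 0.11 in macrophages against cDC (edgeR adjusted p = 0.108) and 0.36 ± 0.14 in pDC against cDC, which passed (edgeR adjusted p = 0.0315). On plain CPM, macrophages and cDC differed by 0.34, 0.28 and 0.04 in Cd11cYFP replicate 1, Cd11cYFP replicate 2 and MAFIA replicate 2, and pDC and cDC by 0.55, 0.48 and -0.08.

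Cx3cr1+ macrophages against monocytes missed the threshold at -0.45 ± 0.17 with an interval of -0.79 to -0.12 (edgeR adjusted p = 0.0564, 22.3% of genes). That difference passed at -0.65 without MAFIA replicate 2 (adjusted p = 0.00978).

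YFP RNA had another order. In Cd11cYFP replicates 1 and 2, Cx3cr1+ macrophages held 2179 and 1091 CPM of YFP, monocytes 2171 and 959.9, and Timd4+ macrophages 1947 and 1245. Cd209a+ dendritic cells held 1996 and 577 CPM. These 4 classes were the highest in both libraries, and Timd4+ macrophages, with under 100 CPM of Itgax in each library, were among them.

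The middle group was B cells with 677 and 495 CPM and Xcr1+ dendritic cells with 558 and 346 CPM. Ccr7+ dendritic cells held 294 and 115 CPM, pDC 239.8 and 149.8, and thymocytes 218 and 182. Fibroblasts held 135 and 20.2 CPM and epithelial cells 53.3 and 87.7. Across the Cd11cYFP libraries YFP was higher in replicate 1 in 10 of 11 classes, epithelial cells being the exception, and the fold ran from 0.608 to 6.69 (median 1.61). Itgax was higher in replicate 1 in 5 of 11 classes, with folds of 0.347 to 1.28 (median 0.891). Orders of YFP are therefore read within a library.

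The Cd11cYFP libraries were compared over 17549 genes in a fit of their own. YFP was 2.71-fold higher in macrophages than in cDC (log2 difference 1.44 ± 0.22, edgeR adjusted p = 1.47e-05, 57% of genes passed), whereas Itgax in that fit differed by -0.02 ± 0.12 (adjusted p = 0.925). YFP was 3.18-fold lower in pDC than in cDC (-1.67 ± 0.32, edgeR adjusted p = 0.000445, 36.8% of genes), whereas Itgax differed by 0.11 ± 0.16 (adjusted p = 0.645). The reporter thus gave a call in 2 comparisons in which the parent gene gave none. Without TMM factors Itgax passed in both, at 0.32 ± 0.12 in macrophages (edgeR adjusted p = 0.0259) and 0.52 ± 0.15 in pDC (adjusted p = 0.0109), and YFP was 1.78 ± 0.21 and -1.26 ± 0.31 (adjusted p = 7.87e-07 and 0.00333). Under both scalings YFP was called lower in pDC than in cDC, and Itgax was not.

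The parent gene alone gave a call in 3 others. B cells and cDC differed in YFP by 0.19 ± 0.28, with a 95% interval of -0.35 to 0.74 (edgeR adjusted p = 0.602, 52.4% of genes passed), and in Itgax by -2.61 ± 0.18 (adjusted p = 1.02e-09). Timd4+ and Cx3cr1+ macrophages differed in YFP by -0.19 ± 0.34, with an interval of -0.86 to 0.49 (edgeR adjusted p = 0.769, 24% of genes), and in Itgax by -1.44 ± 0.19 (adjusted p = 1.74e-05). YFP in Cx3cr1+ macrophages against monocytes was -0.01 ± 0.34, with an interval of -0.68 to 0.66 (edgeR adjusted p = 1.0, 19.7% of genes), and Itgax -0.61 ± 0.18 (adjusted p = 0.0236), a call that was lost without TMM factors, at -0.51 (edgeR adjusted p = 0.0509).

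Among the 6 comparisons only Ccr7+ against Xcr1+ dendritic cells gave a call in the same direction for both, with YFP at -1.14 ± 0.35 (edgeR adjusted p = 0.00973, 54.2% of genes) and Itgax at -1.41 ± 0.18 (adjusted p = 2.84e-06). The YFP call was lost without the library block, at -1.04 (adjusted p = 0.175).

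**Figure D2:**
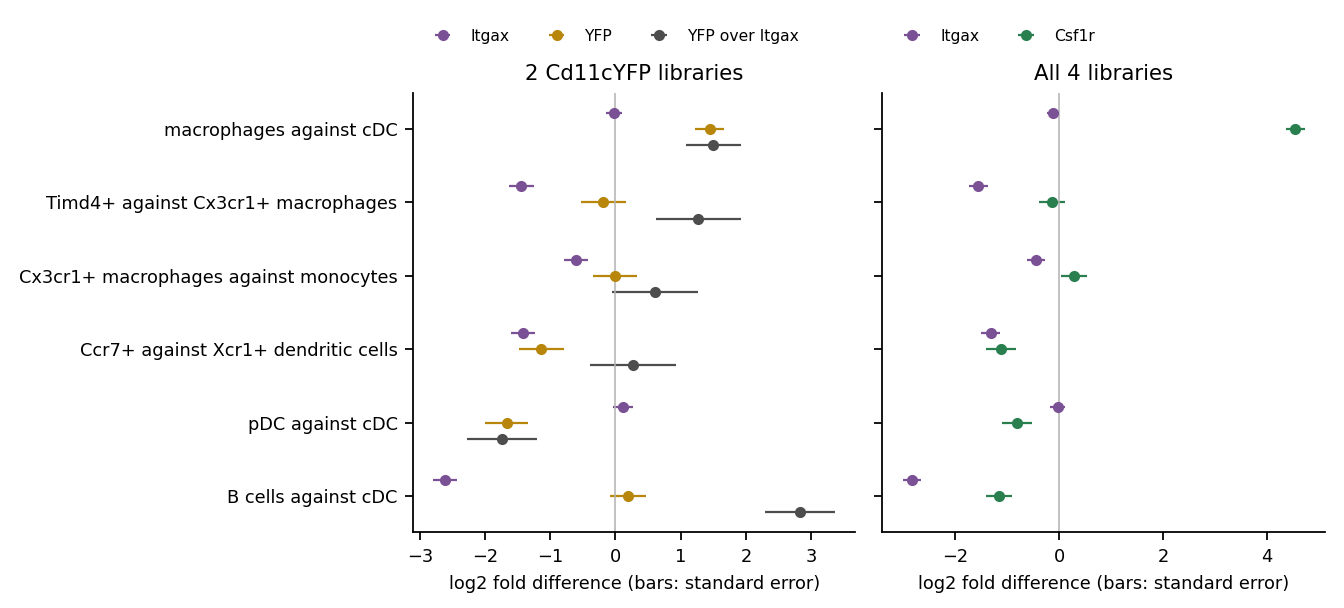
Log2 differences for the 6 class comparisons, as points with bars of 1 standard error, on the left for Itgax, YFP and the ratio of YFP to Itgax in the Cd11cYFP libraries and on the right for Itgax and Csf1r in all 4 libraries. YFP and Itgax lie apart for macrophages against cDC (1.44 against -0.02), pDC against cDC (-1.67 against 0.11) and B cells against cDC (0.19 against -2.61).

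Whether YFP and Itgax changed by unlike folds was tested directly, as the change between classes of the log2 ratio of YFP to Itgax in limma, from which the scaling of totals falls out. The ratio of UMIs was 42.6 and 20.0 in B cells and 1.48 and 0.996 in pDC (Cd11cYFP replicates 1 and 2), the ends of the range in each library. Among cells sorted as YFP+, it was 7.13-fold higher in B cells than in cDC (log2 2.83 ± 0.54, limma adjusted p = 0.00112, 9.22% of genes passed in place of Itgax). It was 3.34-fold lower in pDC than in cDC (-1.74 ± 0.54, limma adjusted p = 0.0164, 42.1% of genes), a call that was lost without the library block (adjusted p = 0.138).

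Timd4+ macrophages had the next highest ratio in both libraries, at 19.7 and 16.1, and Cx3cr1+ macrophages had 11.0 and 4.93. Macrophages against cDC gave a ratio higher by 1.5 ± 0.42 on the log2 scale (limma adjusted p = 0.00472, 70.9% of genes), and without the library block it missed the threshold (adjusted p = 0.0547). The median over all genes in place of Itgax was 1.53, so that change was no larger for Itgax than for the typical gene. For pDC the median over all genes was -1.42 and for B cells 0.25, against -1.74 and 2.83 for Itgax.

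The ratios of Cd209a+ dendritic cells (8.21 and 2.47), monocytes (7.79 and 3.01), Ccr7+ dendritic cells (7.22 and 2.49) and Xcr1+ dendritic cells (4.14 and 2.99) lay close together in replicate 2. The ratio of Ccr7+ to Xcr1+ dendritic cells differed by 0.27 ± 0.66 with an interval of -1.02 to 1.55 (limma adjusted p = 0.761, 14.8% of genes). Timd4+ against Cx3cr1+ macrophages gave 1.27 ± 0.66 (limma adjusted p = 0.734, 1.46% of genes), and Cx3cr1+ macrophages against monocytes 0.61 ± 0.66 (limma adjusted p = 1.0, 0.53% of genes). In these 3 comparisons a difference in fold between YFP and Itgax was not shown. The size of a ratio between the reporter and the gene has no meaning on its own, since capture from 3' ends differs between RNAs, and only its change between classes is read.

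**Figure D3:**
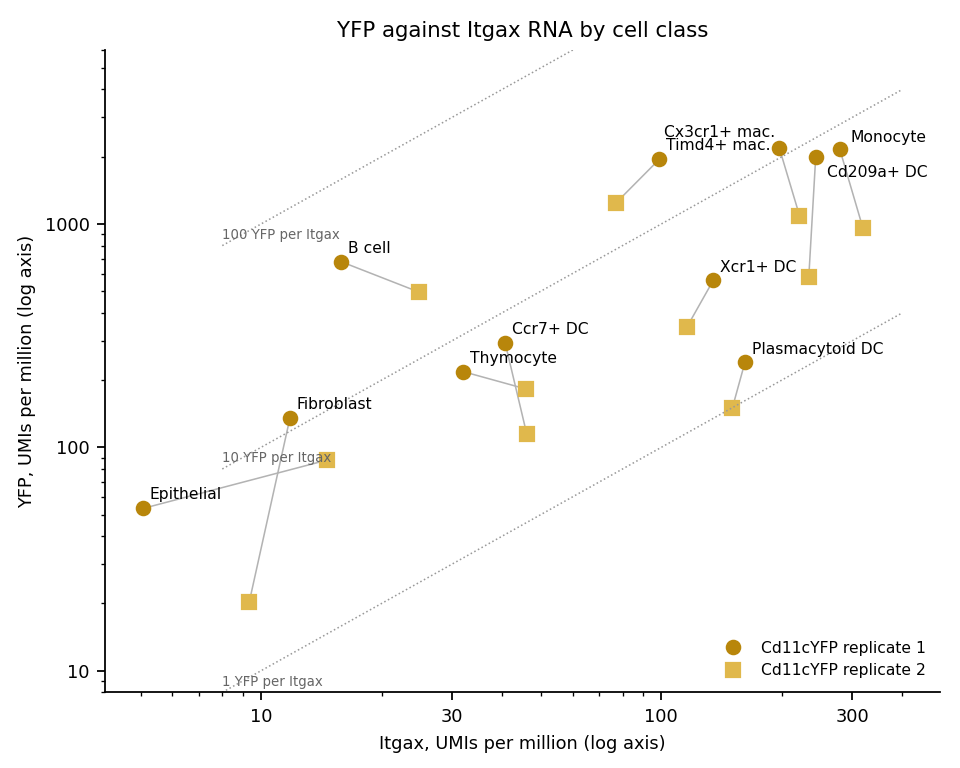
YFP against Itgax in CPM for each class of the Cd11cYFP libraries, both axes on a log scale, with a grey line joining the libraries of a class and dotted lines of equal YFP per Itgax UMI. B cells lie above the other classes of like Itgax level and pDC below, with UMI ratios of 42.6 and 1.48 in replicate 1.

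Clusters inside the classes differed in both genes. B cells formed 3 larger clusters with under 5% likely doublets, in which Itgax was 5.41 to 11.4 CPM in replicate 1 and 8.60 to 13.7 CPM in replicate 2. YFP in the same clusters was 618 to 674 CPM in replicate 1 and 415 to 623 CPM in replicate 2. Another B cell cluster, of which 93.2% of cells were marked as likely doublets, had 142 and 104 CPM of Itgax and ratios of 9.86 and 4.28. With all likely doublets removed, the ratio of B cells to cDC was higher by 4.10 on the log2 scale (SE 0.76, limma adjusted p = 3.26e-05).

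pDC had a cluster of the same kind. The main pDC cluster, with 204 and 120 cells, held 161 and 173 CPM of Itgax and 148 and 73.5 CPM of YFP. A cluster of 12 and 17 cells, 98.3% likely doublets, held 834 and 349 CPM of YFP. With likely doublets removed, YFP in pDC against cDC was -2.42 ± 0.48 (edgeR adjusted p = 0.000446).

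Thymocytes were split in a like way. The largest thymocyte cluster had 14.7 and 7.25 CPM of Itgax and 23.7 and 12.6 CPM of YFP. A small cluster, 40.8% likely doublets, had 151 and 119 CPM of Itgax and 1397 and 483 CPM of YFP. Its 42 and 79 cells held 1323 and 937 YFP UMIs, against 95 and 26 in the 405 and 198 cells of the largest cluster, so most of the YFP counted in thymocytes was in that cluster.

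Ccr7+ dendritic cells also varied. One of their clusters had 8.56 and 8.65 CPM of Itgax and 37.8 and 26.0 CPM of YFP, near the levels of the largest thymocyte cluster. Another had 20.2 and 27.9 CPM of Itgax and 432 and 108 CPM of YFP, and the last, 18.7% likely doublets, had 112 and 89.8 CPM of Itgax and 408 and 191 CPM of YFP. Both genes were lower in the first cluster than in the other two in both libraries.

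Of the Cd209a+ dendritic cells, the larger cluster held 255 and 266 CPM of Itgax with 2224 and 692 CPM of YFP, and the cluster led by Cd209d, Cd209e, Mgl2 and Ngfr held 172 and 156 CPM of Itgax with 589.6 and 296 CPM of YFP.

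YFP was not detected in every cell that had been sorted as YFP+. A YFP UMI was present in 71.8% and 70.6% of the cells of Cd11cYFP replicates 1 and 2, and in 53.7% and 44.6% once each cell was thinned to 3000 UMIs to set depth equal. The thinned share was highest in Timd4+ macrophages (92.4% and 79.2%) and Cx3cr1+ macrophages (92.1% and 83.9%). It was 79.5% and 54.4% in Cd209a+ dendritic cells, 69.9% and 63.6% in monocytes, 65.2% and 54.7% in Xcr1+ dendritic cells and 50.2% and 49.8% in B cells.

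The share fell to 22.9% and 17.3% in Ccr7+ dendritic cells, 16.7% and 11.7% in pDC, 11.2% and 13.8% in thymocytes, 4.76% and 15.6% in epithelial cells and 2.99% and 2.04% in fibroblasts. A low reference is the largest thymocyte cluster, with 4.94% and 3.03% (unthinned 11.9% and 9.60% at median depths of 8027 and 8935 UMIs, against 15759 and 17210 over all barcodes). The pDC share lay above this reference in both libraries. The fibroblast shares rest on 2 of 67 and 1 of 49 cells, and without thinning 13 and 8 fibroblasts held YFP (19.4% and 16.3%). A single fibroblast held 107 of the 149 YFP UMIs of the class in replicate 1, so its 135 CPM is mostly that cell. In the MAFIA libraries YFP was in 0.109% and 0.225% of cells.

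Within most classes cells with Itgax RNA held YFP RNA more often in replicate 1, and in fewer classes in replicate 2. At 3000 UMIs the share was higher in cells with Itgax in 8 of 9 classes of replicate 1, all but Cx3cr1+ macrophages, and in 5 of 9 of replicate 2. All cells together gave YFP in 73.7% of cells with an Itgax UMI and 47.1% without in replicate 1, and in 56.3% and 41.2% in replicate 2. Inside Cx3cr1+ macrophages the shares were 90.3% with and 93.4% without in replicate 1, and 78.9% and 87.9% in replicate 2. In monocytes they were 71.1% and 68.8%, then 64.5% and 62.4%. In Timd4+ macrophages they were 96.6% and 91.3%, then 73.3% and 80.4%.

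In Xcr1+ dendritic cells YFP was in 70.4% of cells with Itgax and 62.7% without in replicate 1, and in 56.1% and 54.2% in replicate 2. In Cd209a+ dendritic cells it was 83.6% and 75.4%, then 53.8% and 55.0%. The widest gaps between cells with and without Itgax were in classes whose clusters had unlike levels, Ccr7+ dendritic cells (54.6% and 20.6%, then 37.7% and 15.5%) and thymocytes (47.2% and 8.70%, then 46.7% and 11.0%). In B cells 21 of 35 cells with Itgax held YFP in replicate 1 and 33 of 50 in replicate 2, against 49.9% and 49.1% of those without.

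The mean number of YFP UMIs in Cx3cr1+ macrophages of replicate 1 was 6.91 in cells with 0 Itgax UMIs, 6.34 with 1, 6.28 with 2 and 3.85 in the 13 cells with 3 or more. In replicate 2 it was 4.03, 3.14, 2.57 and 2.84. It did not rise with Itgax in Cx3cr1+ macrophages of either library. In Xcr1+ dendritic cells it was 1.61, 2.03, 2.54 and 2.36 in replicate 1, and 1.05, 1.20, 1.25 and 1.79 in replicate 2, with 11 and 14 cells at 3 or more. In Cd209a+ dendritic cells it was 6.24, 6.59, 6.82 and 5.38, then 1.87, 1.88, 2.27 and 1.0. In Ccr7+ dendritic cells it was 0.840 without Itgax and 2.94 with 1 UMI in replicate 1, and 0.272 and 0.711 in replicate 2. The classes thus differed in whether YFP was higher in cells with more Itgax.

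Spearman correlations of YFP and Itgax over thinned cells lay between -0.193 and 0.208 in the 8 other classes of over 100 cells and were 0.313 and 0.280 in thymocytes, and were 0.251 and 0.128 over all 7646 and 9684 cells. These are descriptions of sparse counts. Split by Csf1r, YFP was in 78.9% of all cells with a Csf1r UMI and 46.7% without in replicate 1, and in 70.8% and 39.9% in replicate 2.

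**Figure D4:**
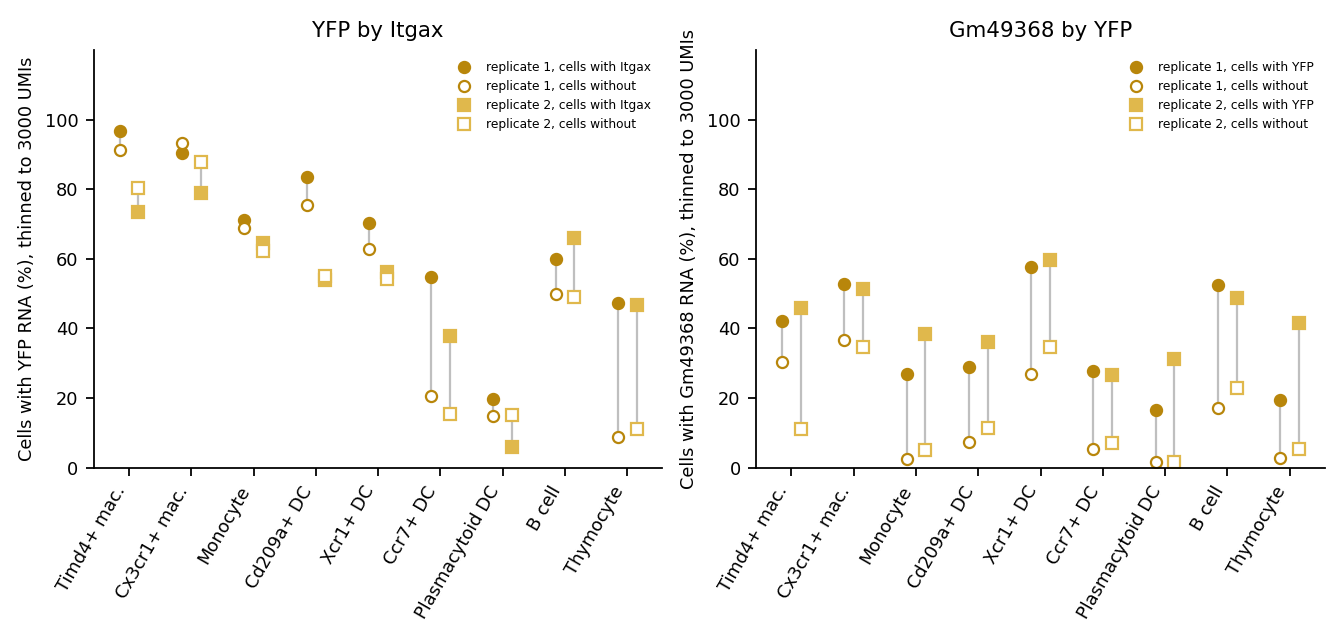
Share of cells of the Cd11cYFP libraries in percent, each cell thinned to 3000 UMIs, with a YFP UMI among cells with (filled) and without (open) Itgax on the left, and with a Gm49368 UMI among cells with and without YFP on the right. The paired points for YFP by Itgax lie close together in monocytes and apart in Ccr7+ dendritic cells and thymocytes, and for Gm49368 by YFP the filled point is above the open one in all 9 classes.

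Csf1r (ENSMUSG00000024621) lies on the forward strand of chromosome 18, at 61229714 to 61266535 (GRCm39). Its RNA marked the macrophages and monocytes. Timd4+ macrophages held 666, 642 and 581 CPM in Cd11cYFP replicate 1, Cd11cYFP replicate 2 and MAFIA replicate 2, Cx3cr1+ macrophages 543, 668 and 711 CPM, and monocytes 490.2, 419.5 and 464 CPM. The 2 macrophage classes overlapped and both lay above the monocytes in every library. Cd209a+ dendritic cells followed with 123, 116 and 162 CPM, and all other classes lay at or under 29.8 CPM.

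Among the low classes, thymocytes held 18.0, 20.7 and 29.8 CPM, Xcr1+ dendritic cells 9.52, 10.7 and 18.3, and pDC 20.4, 10.7 and 15.1. B cells held 6.99, 5.36 and 21.6 CPM, with the MAFIA library above both others, and Ccr7+ dendritic cells 4.16, 5.08 and 6.99 CPM. The ranges of neighbours in this low group overlapped. Csf1r and Itgax thus had different orders: Timd4+ macrophages were among the highest for Csf1r and below Xcr1+ dendritic cells for Itgax.

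Csf1r was 23.4-fold higher in macrophages than in cDC (log2 4.55 ± 0.18, edgeR adjusted p = 7.25e-21). It was lower in B cells (-1.17 ± 0.25, edgeR adjusted p = 0.000197) and in pDC (-0.81 ± 0.28, adjusted p = 0.0177) than in cDC, among which the Cd209a+ class was by far the highest. The pDC call was lost without MAFIA replicate 2, at -0.43 (adjusted p = 0.337), and without Cd11cYFP replicate 2, at -0.68 (adjusted p = 0.0928). Ccr7+ dendritic cells held less than Xcr1+ dendritic cells (-1.12 ± 0.29, adjusted p = 0.00159), a call that was lost at other clustering resolutions, at 0.04 and -0.15.

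The macrophage and monocyte classes gave no call. Timd4+ and Cx3cr1+ macrophages differed by -0.13 ± 0.25 with an interval of -0.63 to 0.36 (edgeR adjusted p = 0.788). Cx3cr1+ macrophages and monocytes differed by 0.28 ± 0.25 with an interval of -0.22 to 0.78 (adjusted p = 0.482).

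Parent genes were set side by side between the lines. Itgax in MAFIA replicate 2 was 0.665-fold to 1.40-fold of the Cd11cYFP mean over 10 classes (median 0.843-fold), and Csf1r 0.889-fold to 3.51-fold (median 1.31-fold, above 1 in 8 of 10 classes). Of 12 tests of whether a class difference depended on the line, 0 passed in edgeR and 3 had an unadjusted p under 0.05, where 0.604%, 0.00587%, 0.176%, 0.117%, 0.176% and 0.364% of genes passed in the 6 comparisons. The widest was Csf1r in B cells against cDC, 1.20 ± 0.33 higher on the log2 scale in the MAFIA line (edgeR adjusted p = 0.132). The other two were Csf1r in macrophages against cDC (-0.67 ± 0.23, adjusted p = 0.239) and Itgax in B cells against cDC (-0.63 ± 0.28, adjusted p = 0.532).

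UMIs of the EGFP entry were sparse in the line that carries it. It was present in 46 of 5493 cells of MAFIA replicate 1 (0.837%, exact 95% interval 0.614 to 1.12) and 132 of 6219 cells of MAFIA replicate 2 (2.12%, 1.78 to 2.51). At 3000 UMIs per cell, with 1039 cells of MAFIA replicate 1 left out as shallower, the shares were 0.516% and 0.402%. The higher share of the deeper library was thus not seen at equal depth. Intervals cover counting error only.

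In MAFIA replicate 2, monocytes had an EGFP UMI in 6.53% of cells (4.19 to 9.64), Cd209a+ dendritic cells in 5.05% (3.32 to 7.31), Timd4+ macrophages in 4.77% (2.98 to 7.20) and Cx3cr1+ macrophages in 2.62% (1.44 to 4.35). Thymocytes had it in 2.68% (1.35 to 4.75) and Xcr1+ dendritic cells in 1.57% (0.864 to 2.63). B cells (0.693%), pDC (0.558%) and Ccr7+ dendritic cells (0.152%) were lowest among classes with any. The shares of neighbouring classes overlapped, and those of monocytes and of Xcr1+ dendritic cells did not. At 3000 UMIs no class held over 5 cells with EGFP, and the shares were at or under 1.42%.

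The summed levels gave 3.76 CPM in monocytes (2.38 to 5.64), 2.44 in Cd209a+ dendritic cells (1.59 to 3.58), 2.36 in Timd4+ macrophages (1.46 to 3.61) and 1.12 in Cx3cr1+ macrophages (0.624 to 1.84). Cx3cr1+ macrophages, with the highest Csf1r of that library, had 15 EGFP UMIs beside 9564 Csf1r UMIs, or 1.57 per 1000 (0.878 to 2.59). The number was 4.07 per 1000 in Timd4+ macrophages (2.52 to 6.22), 8.11 in monocytes (5.14 to 12.2), 15.1 in Cd209a+ dendritic cells (9.84 to 22.1) and 30.8 in Xcr1+ dendritic cells (16.9 to 51.7). EGFP thus did not scale with Csf1r over classes, since the intervals of Cx3cr1+ macrophages and of the last 3 classes do not overlap. With 1 library giving these classes there was no replicate check and no test.

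From cell to cell, 115 of 2672 MAFIA replicate 2 cells with a Csf1r UMI held EGFP (4.30%), against 17 of 3547 without (0.479%). At 3000 UMIs these were 9 of 1448 (0.622%) and 16 of 4771 (0.335%), counts of under 20 cells each. In MAFIA replicate 1 they were 10 of 1879 (0.532%) and 13 of 2575 (0.505%). Of the unthinned thymocytes in MAFIA replicate 2, 9 of 81 with Csf1r held EGFP (11.1%) and 2 of 329 without (0.608%). Most EGFP+ thymocytes were in the cluster led by Arpp21 and Dntt, with 9 of 227 cells, and 0 of 152 cells of the largest thymocyte cluster held it.

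A few EGFP UMIs were also counted in the Cd11cYFP libraries, in 0.248% and 0.0826% of cells. All 19 of 19 and 8 of 8 such cells also held YFP, with medians of 54 and 30 YFP UMIs against 5 and 3 over all cells, and none of the 2159 and 2850 cells without YFP held EGFP. Of the 14 MAFIA replicate 2 cells with a YFP UMI, 2 also held EGFP. EGFP in the Cd11cYFP libraries thus moved with YFP, and its share there is not taken as a background for MAFIA cells. The share in MAFIA Ccr7+ dendritic cells, 0.152%, rests on 1 of 658 cells.

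Counts assigned to a gene beside Itgax differed between the lines in the same direction as YFP. Gm49368 (ENSMUSG00000108596), a protein-coding model at chr7:127661855-127727332 (GRCm39, forward strand), overlaps Itgam, and its last exon ends 1335 bases before the start of Itgax. It is not known whether these UMIs come from the gene itself or from sequence carried by the Cd11cYFP transgene, so the values below are counts assigned to Gm49368. They summed to 23034 and 32342 UMIs in Cd11cYFP replicates 1 and 2 (168.5 and 177.0 CPM) and to 5 and 27 UMIs in MAFIA replicates 1 and 2 (0.187 and 0.221 CPM). Such a UMI was in 49.3% and 56.6% of Cd11cYFP cells.

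By a screen set after the data were seen, 13 entries had at least 5 CPM in both Cd11cYFP libraries and over 20 times either MAFIA value. Besides YFP and Gm49368 these were Fos, the Y-linked Ddx3y, Eif2s3y, Uty and Kdm5d, and Pth, Dcn, Gm47283, Chga, Ptn and Lum. No other gene within 100 kb of Itgax met the screen. What sets the Gm49368 count was not tested, and line, sex and age cannot be told apart here. Since Gm49368 overlaps Itgam, counts of Itgam (3047 UMIs in all libraries) are uncertain.

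Gm49368 was highest in Xcr1+ dendritic cells (297 and 278 CPM in Cd11cYFP replicates 1 and 2) and Cx3cr1+ macrophages (279 and 245 CPM). Timd4+ macrophages held 206 and 183 CPM, B cells 179 and 182, Cd209a+ dendritic cells 151 and 141 and monocytes 124 and 170.0. Ccr7+ dendritic cells held 64.7 and 57.6 CPM, pDC 22.6 and 49.5, and thymocytes 29.7 and 64.5. B cells, with 15.9 and 24.8 CPM of Itgax, thus had about as much of it as Timd4+ macrophages, and pDC, with 162 and 150.4 CPM of Itgax, had less than Ccr7+ dendritic cells. MAFIA replicate 2 held at most 2.29 CPM in any class.

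The Cd11cYFP libraries differed by 0.952-fold in Gm49368 over all cells (replicate 1 over replicate 2) and by 0.156-fold to 1.14-fold by class. YFP differed by 2.46-fold over all cells, so the difference between the libraries was not shared. Over 22 class sums of these libraries, Pearson's r of log2 CPM was 0.840 between YFP and Gm49368, 0.758 between YFP and Itgax and 0.712 between Itgax and Gm49368. With library means taken out they were 0.900, 0.794 and 0.712. In likeness to YFP, before library means were taken out, Gm49368 was at rank 64 of 18320 genes, so many other genes were closer. The sums share libraries and depth, and these are descriptions.

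**Figure D5:**
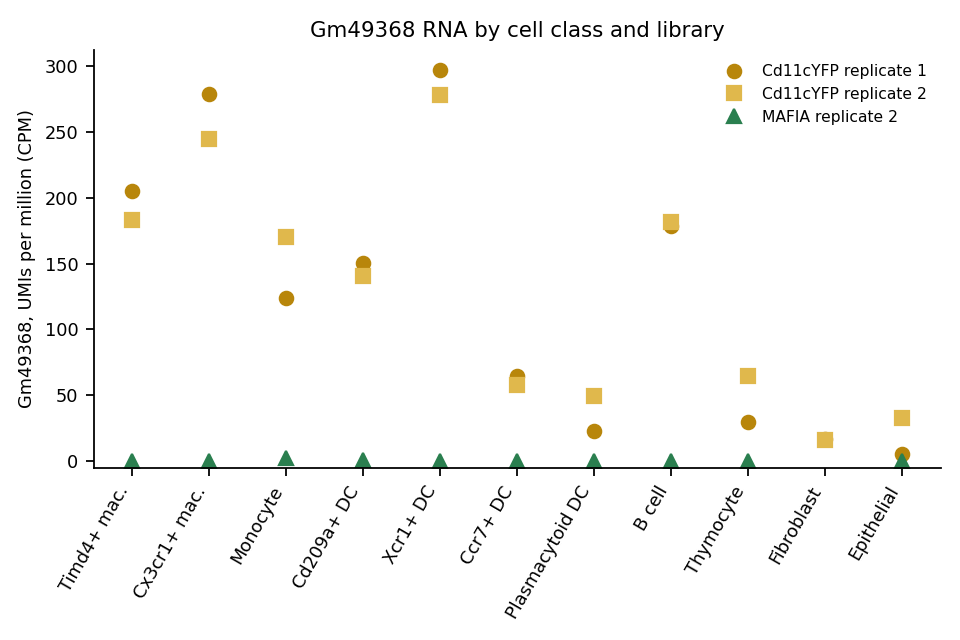
Gm49368 in CPM on a linear axis by class, with 1 point per library. Both Cd11cYFP points lie above 120 CPM in macrophages, monocytes, Cd209a+ and Xcr1+ dendritic cells and B cells and at or under 64.7 CPM in the other classes, and the points of MAFIA replicate 2 stay at or under 2.29 CPM.

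In single cells Gm49368 went with YFP. At 3000 UMIs it was in 40.3% of YFP+ cells and 9.46% of YFP- cells of replicate 1, and in 47.7% and 16.1% in replicate 2. In B cells these were 52.5% and 17.2%, then 48.7% and 22.9%. In Xcr1+ dendritic cells they were 57.7% and 27.0%, then 59.6% and 34.7%, and in monocytes 26.9% and 2.35%, then 38.4% and 5.06%.

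Split by Itgax instead, the shares in replicate 1 were 40.0% with and 34.7% without in B cells, 48.4% and 46.4% in Xcr1+ dendritic cells and 50.7% and 52.2% in Cx3cr1+ macrophages. Split by YFP, Cx3cr1+ macrophages gave 52.8% and 36.6%, so that the gap was wider by YFP than by Itgax in each of these 3 classes of replicate 1. It was not so in every class. Ccr7+ dendritic cells gave 33.0% and 8.82% by Itgax and 27.8% and 5.29% by YFP in replicate 1. In replicate 2 they gave 30.9% and 8.51% by Itgax and 26.6% and 6.96% by YFP. Timd4+ macrophages gave 54.2% and 38.0% by Itgax and 42.1% and 30.4% by YFP in replicate 1. In replicate 2 their gap was wider by YFP (45.9% and 11.1%) than by Itgax (48.9% and 36.4%). Spearman correlations of Gm49368 with YFP were 0.371 and 0.371 over all cells and 0.163 to 0.486 within the 9 classes of over 100 cells.

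The genes listed around Itgax were 14 within 100 kb, of which 9 passed the filter on low counts, and their background shares are those given for the comparisons above. In macrophages against cDC 6 were higher and 0 lower (median log2 0.57, against -0.08 over all genes), with Itgam, whose counts are uncertain, among the 6. In pDC against cDC 5 were higher and 1 lower (1.07, against -0.15 over all genes). The lower was Gm49368 (-2.42 ± 0.41, edgeR adjusted p = 1.60e-05), the source of whose counts is not known. Cox6a2 was among the 5 higher (7.87 ± 0.36), and as a marker used to name pDC its call followed from the naming. The count is therefore not read as a trait of genes around Itgax in pDC. In B cells against cDC 1 was higher and 1 lower (-0.02, against -0.03). The lower gene was Itgam, a call that was lost without TMM factors and with DESeq2. Itgad, next to Itgax, held 194, 250.0 and 190.4 CPM in Timd4+ macrophages (Cd11cYFP replicates 1 and 2, MAFIA replicate 2). Its log2 difference there to Cx3cr1+ macrophages was 5.99 ± 0.32 (edgeR adjusted p = 2.44e-15), the opposite direction to Itgax. Itgad was also higher in pDC than in cDC, by 4.18 ± 0.34 (edgeR adjusted p = 5.09e-12). Cox6a2, a subunit of cytochrome oxidase and a marker used to name pDC, held at least 964 CPM there in each of the 4 libraries.

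Of the other beta2 integrin genes, 3 of 4 were higher and 0 lower in macrophages than in cDC, where 57.1% of all genes passed. Itgam, whose counts are uncertain, is among the 3. Itgb2, the partner chain of CD11c, was higher by 0.99 ± 0.13 (edgeR adjusted p = 3.20e-08), while Itgax itself gave no call. Itgal (CD11a) was lower in Timd4+ than in Cx3cr1+ macrophages (-1.86 ± 0.23, adjusted p = 1.52e-07), as Itgax was. In Ccr7+ against Xcr1+ dendritic cells 0 of the 4 were higher and 2 lower, where 52.8% of all genes passed, Itgal (-2.19 ± 0.21) and Itgb2 (-2.28 ± 0.21).

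Of the 7 ligands and regulators of Csf1r, 3 were higher and 1 lower in macrophages than in cDC, a share near the 57.1% of all genes, so nothing is read from the count. Cebpa and Cebpb, transcription factors of the myeloid lineage, were higher by 2.98 ± 0.14 (edgeR adjusted p = 2.10e-18) and 2.35 ± 0.20, and Csf1 itself by 2.57 ± 0.20. Spi1 (PU.1) was lower (-0.35 ± 0.11, adjusted p = 0.00829), but at -0.03 without TMM factors (edgeR adjusted p = 0.854) and -0.21 with DESeq2 (adjusted p = 0.119). Under those scalings Runx1 was higher instead, at 0.59 and 0.41, which made 4 higher and 0 lower. Cebpa was lower in Timd4+ than in Cx3cr1+ macrophages (-1.30 ± 0.22, adjusted p = 2.26e-05), although Csf1r gave no call there, and Csf1 was higher in Ccr7+ than in Xcr1+ dendritic cells by 4.25 ± 0.33 (adjusted p = 1.13e-12). In B cells against cDC 2 of the 7 were higher and 4 lower, where 53.2% of all genes passed, with Spi1 at -2.66 ± 0.17 (adjusted p = 8.35e-15).

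All 5 dendritic cell factors were lower in macrophages than in cDC (5 of 5, median log2 -2.0), where 57.1% of all genes passed and 5308 of 18322 were lower, with Flt3, the receptor for a dendritic cell growth factor, at -4.07 ± 0.20 and Zbtb46, a factor of conventional dendritic cells, at -3.45 ± 0.13. Runx3 was lower in Timd4+ than in Cx3cr1+ macrophages (-3.19 ± 0.22, edgeR adjusted p = 7.70e-13), in the same direction as Itgax. The level of Runx3 in Cx3cr1+ macrophages, 352 ± 54.0 CPM (SD, n = 3), was above the means of the Cd209a+ (304), Xcr1+ (189) and Ccr7+ (96.8) dendritic cells. Of the mouse genes named in the MAFIA cassette, Fkbp1a and Fas were lower in macrophages than in cDC, Fas not without TMM factors (-0.40, edgeR adjusted p = 0.0721), and Ngfr gave no call. Ngfr in Cd209a+ dendritic cells was at 18.5 and 33.9 CPM in the Cd11cYFP libraries and at 132 and 64.5 CPM in the MAFIA libraries. The cluster with Ngfr among its leading genes made up unlike parts of this class. It held 118 of 1003 and 239 of 889 cells in Cd11cYFP replicates 1 and 2. In MAFIA replicates 1 and 2 it held 10 of 13 and 228 of 515 cells. Whether the line itself changes Ngfr was not tested.

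The genes whose class levels were most like those of a member were found by Pearson's r of log2(CPM + 1). For YFP, over 22 class sums of the Cd11cYFP libraries, they were Neurl3 (0.923), Rbbp5 (0.918), Zmiz1 (0.916), Ms4a6c (0.912) and Tlr6 (0.912). Among 18320 genes Itgax, the parent gene, was at rank 333 with 0.758 and Csf1r at rank 424 with 0.741. The gene whose promoter drives the reporter was thus not among those nearest to it.

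For Itgax, over 37 sums of all libraries, they were Gm2a (0.931), Gpr35 (0.927), Tep1 (0.914), Fes (0.911) and Tifab (0.909). For Csf1r they were Clec4n (0.959), Adgre1 (0.955), Clec4a3 (0.95), Cx3cr1 (0.945) and Lyz2 (0.935), among which Cx3cr1 and Adgre1 are macrophage markers used to name the classes. The sums share libraries, and no p is given. EGFP was left out as too sparse.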

How the data were processed

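The deposited values are UMI counts for each gene and barcode, which the authors had not normalized. The submitters' processing notes name bcl2fastq 2.20, STAR 2.7.9a, Cell Ranger, GRCm39 and mm39, whereas the study's methods name another build and version. The GENCODE annotation of GRCm39 held 54749 of the 55418 identifiers. Barcodes with 1000 to 7000 genes and at most 10% mitochondrial UMIs were kept, as the study states. Cells were scaled to 10000 UMIs, and 2000 variable genes, 70 principal components and 3 neighbours per library were used for Leiden clustering (leidenalg 0.10.2, resolution 2.0), leaving out the members and listed genes, apart from other genes near Itgax. Clusters were named by mean scaled marker level (score at least 1.0, no rival class at 0.6 of it with leading genes), a rule set after the clusters were seen. The members, lists and markers were chosen with earlier results of these data known.

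For each class with 10 or more cells in a library, its UMIs were added up. These sums were compared in edgeR 4.0.16 (R 4.3.3, TMM, filterByExpr, quasi-likelihood F test, library and class as terms, Benjamini-Hochberg over all genes, threshold 0.05). SE is the absolute log2 difference over the root of F, and 95% intervals are 1.96 SE. Ratios used limma 3.58.1 on log2 CPM with a prior count of 2. P-values measure how far class differences vary between libraries, pooled over all classes, once differences common to a whole library are taken out. The residual degrees of freedom were 23 in all libraries and 10 in the 2 Cd11cYFP libraries. They do not measure the full spread between animals, and the MAFIA pair may be technical. The library was a block because its classes come from the same animal or preparation. Sums of MAFIA replicate 1 came from 11 to 26 cells in 5 classes. Cells were thinned to 3000 UMIs for shares, with exact binomial or Poisson intervals at 95%. The 1768 cells with the largest share of simulated doublets, made by summing pairs of cells, among their nearest neighbours (0.8% of a library per 1000 barcodes) were kept and removed in an alternative. Named genes were the members, fixed lists and the 5 genes most like YFP, Itgax and Csf1r. Gm49368 was described further, and the 13-entry screen set, after values were seen. Fits were tested on simulated counts. Alternatives were DESeq2 1.42.0, resolutions 1.0 and 3.0, doublet removal, clustering without MAFIA replicate 1, no filter on low counts, no library term, each library left out, a prior count of 0.5 and thinning to 5000 UMIs or none. Leaving MAFIA replicate 1 out of the fits and leaving out the TMM factors were chosen after seeing the data.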

Additional observations from a re-analysis of the deposited data

How the results depend on the processing

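Values are log2 differences. Of the comparisons of Itgax and Csf1r under alternatives, 120 kept their direction and side of the threshold. Another 13 changed direction, 7 lost a call and 4 gained a call. For YFP, 52 were counted as unchanged, 4 changed direction, 3 lost a call and 1 gained a call. For the YFP to Itgax ratio, 57 were counted as unchanged and 3 lost a call. The unchanged counts of YFP and the ratio include fits of 1 Cd11cYFP library, which had no test and were judged by closeness of value alone. Closeness was measured against the spread between these same fits, whose values lay on either side of the full fit. The label could therefore hardly come out as changed, and nothing is read from it. Among the fits of 1 Cd11cYFP library, the ratio in Ccr7+ against Xcr1+ dendritic cells ranged from -0.26 to 0.80. YFP in B cells against cDC ranged from -0.14 to 0.59, a change of sign that was still counted as unchanged. Itgax in macrophages against cDC, not called, turned to 0.015 with DESeq2. Itgax in Cx3cr1+ macrophages against monocytes gained a call at -0.49 and -0.48 (resolutions 1.0 and 3.0) and -0.44 (no filter on low counts), with -0.65 to -0.38 when each library was left out. Itgax in pDC against cDC turned to 0.040 (resolution 1.0), 0.038 (doublets removed) and 0.14 (DESeq2), with -0.13 to 0.22 when a library was left out, the highest without MAFIA replicate 2. Csf1r in Timd4+ against Cx3cr1+ macrophages turned to 0.068 (doublets removed) and 0.086 (DESeq2) and ranged from -0.25 to 0.028 with a library left out, the highest without MAFIA replicate 2. Csf1r in Ccr7+ against Xcr1+ dendritic cells turned to 0.036 at resolution 1.0 and lost its call at -0.15 (resolution 3.0) and -0.29 (clustering without MAFIA replicate 1). Csf1r in pDC against cDC lost its call at -0.58 (DESeq2) and ranged from -1.15 to -0.43, losing it without MAFIA replicate 2 and without Cd11cYFP replicate 2. YFP in Cx3cr1+ macrophages against monocytes turned to 0.059 (no filter) and 0.018 (DESeq2). YFP in Ccr7+ against Xcr1+ dendritic cells lost its call at -0.79 (resolution 3.0) and -0.76 (clustering without MAFIA replicate 1). YFP in B cells against cDC gained a call at 0.25 (no filter), and the ratio in pDC against cDC lost its call at -1.36 (resolution 1.0). With 1 Cd11cYFP library at a time there was no test, and YFP ranged from -0.08 to 0.12 in Cx3cr1+ macrophages against monocytes, -1.45 to -0.81 in Ccr7+ against Xcr1+ dendritic cells and -0.14 to 0.59 in B cells against cDC. The cause was not tested in any of these.

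An alternative chosen after seeing the data left out the TMM factors. It moved the median of all genes by -0.12 to 0.37 over the 6 comparisons in all libraries and by -0.09 to 0.39 in the Cd11cYFP libraries. Itgax turned to 0.21 in macrophages against cDC and to 0.36, with a call, in pDC against cDC. Csf1r turned to 0.12 in Timd4+ against Cx3cr1+ macrophages and lost its call at -0.43 in pDC against cDC. YFP turned to 0.019 in Timd4+ against Cx3cr1+ macrophages and 0.088 in Cx3cr1+ macrophages against monocytes. No call of the ratio changed.

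Without the library block, which pairs the classes of a library, Itgax was 0.0084 in pDC against cDC, and calls were lost for Csf1r in pDC against cDC (-0.76), YFP in Ccr7+ against Xcr1+ dendritic cells (-1.04), and the ratio in macrophages against cDC (1.5) and in pDC against cDC (-1.74). It changed no other call.

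Depth sets the shares. Without thinning EGFP was in 0.837% and 2.12% of MAFIA cells and YFP in 71.8% and 70.6% of Cd11cYFP cells, and YFP in 60.6% and 54.1% at 5000 UMIs. The share of EGFP in cells with Csf1r minus that in cells without was -0.461 points in MAFIA replicate 1 at 5000 UMIs, and 3.82 and 1.25 points in MAFIA replicate 2 without thinning and at 5000 UMIs. For YFP by Itgax it was 36.8 and 34.3 points without thinning, and 19.5 in replicate 2 at 5000 UMIs.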
